A study of Mus musculus with 18 samples.

Results

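Atp5b (also Atp5f1b) encodes the catalytic beta subunit of mitochondrial ATP synthase, and Shmt2 encodes mitochondrial serine hydroxymethyltransferase. The isoforms described here were chosen by their position on mouse chromosome 10 (GRCm39): an isoform belonged to a gene when both of its ends lay within the gene's interval on the gene's strand. The genes themselves were selected with their coverage, translation and half-life values in these data already known, so the values are a description and carry no test. The rule took 18 isoforms of Atp5b and 10 of Shmt2, together 28 of the 13759 isoforms in both assays. Of these, 7 came from the polysome assay and 21 from the decay assay.

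The study used TIF-seq2, which links the start of an mRNA to its own poly(A) end, in myotubes of WT female mice, made from primary gastrocnemius myoblasts that all received 1 µM of the ERK inhibitor SCH772984 and fused within 24 h. The 6 polysome libraries came from cells given 100 µg/ml cycloheximide for 5 min, a drug that holds ribosomes on mRNA, and 2 mice gave each of 3 sucrose gradient fractions: free, light with 2 to 5 ribosomes, and heavy with at least 6. The 12 decay libraries came from cells given 7.5 µg/ml actinomycin D, which stops transcription, with 3 mice at each of 0, 3, 6 and 12 h. For each isoform the authors deposited 1 coverage count pooled over libraries and 1 derived value, TE (translation efficiency) in the polysome assay or half-life in the decay assay.

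No value of a single mouse, fraction or time was used, because the deposited values are pooled, so no value below has a replicate error and n per isoform is 1 pooled value. The formula of TE and of half-life, and the unit of the latter, are not stated in the labels or headers, and both are printed as the authors gave them. The 7095 nuclear isoforms of the polysome assay had a summed coverage of 1600529 counts, and the 6593 of the decay assay 3117987. Myotube markers named by sequence were covered in both assays. The most covered named isoform had 28298 and 42409 counts for Acta1 (skeletal actin), and 878 and 2316 for Myog (myogenin). Of 8 markers sought, 6 were named in each assay, Ckm, Des, Myh3 and Tnnt2 being the others.

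ATP synthase uses the proton gradient across the inner mitochondrial membrane to make ATP. Its beta subunit holds the catalytic sites and is made from a nuclear mRNA, imported, and assembled with many partner subunits. SHMT2 splits serine into glycine and a one-carbon unit carried by folate, which feeds nucleotide synthesis and formylation of the mitochondrial initiator tRNA. A 3′ end further along the same 3′ UTR leaves the coding sequence as it is and adds 3′ UTR, where sites for RNA-binding proteins and microRNAs lie.

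The sequences at the main mRNA ends are shown first, because the differences described further on are differences between them. The Atp5b start is printed from 6 bases before it, through its 21-nt 5′ UTR, to the start codon in capitals, from the RefSeq promoter table (GRCm38.p6). The Shmt2 line is the deposited 5′ UTR, with the first base of the polysome main start and of the decay main start in capitals.
Atp5b start: gcgctcagtctccacccggattccgccATG
Shmt2 starts: AattttctcgcgcacgcgttctAagagcag
The Atp5b leader with its start codon occurred in the promoter window of no other gene in that table, and likewise the first 24 nt of the Shmt2 leader. Both genes are therefore identified by sequence as well as by position. The Atp5b start lay 1 nt upstream of the RefSeq start and the Shmt2 polysome start 26 nt downstream of it. The authors' deposited distances from an annotated start are -33 nt for the Atp5b main start, with a minus for a start further inside. For the Shmt2 main starts they are -26 nt in the polysome and 10 nt in the decay assay.

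The main 3′ ends and some of the alternatives are printed as the last 30 nt of the deposited 3′ UTR, with a polyadenylation hexamer, AATAAA or ATTAAA, in capitals where one is present. Names give the length of the 3′ UTR.
Atp5b 153-nt end: ttaaagttttcAATAAAgtatatacccctc
Atp5b 271-nt end: tattATTAAAaagatcaatttattaatgag
Shmt2 472-nt end: ctgtttttatctAATAAAatgctaacctgc
Shmt2 666-nt end: caatttgttaaatgaaattgtattttgccc
Shmt2 529-nt end: tcccctgggccagccagcgattctactccc
The most used end of each gene carries AATAAA, 19 nt before the end in Atp5b and 18 nt before it in Shmt2, counted from the hexamer's first base. The longer Atp5b end carries ATTAAA 26 nt before it. The 666-nt and 529-nt Shmt2 ends hold neither hexamer in their last 40 nt. AATAAA lies in the last 40 nt of 65.1% of polysome isoforms with a 3′ UTR and 66.6% of decay isoforms, ATTAAA in 15.6% and 16.2%, and neither in 20.7% and 18.8%.

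The leading isoform of each gene was among the well covered nuclear isoforms, while genes as a whole were not ranked by coverage. Atp5b had 1602 counts in the polysome assay, 0.100% of nuclear coverage (95% Wilson interval 0.0953 to 0.105%), and 7464 in the decay assay, 0.239% (0.234 to 0.245%). Shmt2 had 1300 counts, 0.0812% (0.0769 to 0.0858%), and 4753 counts, 0.152% (0.148 to 0.157%). The intervals cover counting error only. Among single isoforms by coverage, the leading Atp5b isoform ranked 206 of 7095 and 76 of 6593, and the leading Shmt2 isoform 355 and 176. In these bulk libraries, fewer cells that carry an mRNA and less of it per cell cannot be told apart.

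Nearly all Atp5b mRNA had 1 form. The isoform at chr10:127919175-127926141 (+ strand) had 1576 of 1602 counts in the polysome assay, 98.4% (97.6 to 98.9%), and 6805 of 7464 in the decay assay, 91.2% (90.5 to 91.8%). Its 3′ end took 100% of the listed Atp5b coverage in the polysome assay and 97.3% (96.9 to 97.7%) in the decay assay. The deposited class of this isoform is New PAS, that is, a polyadenylation site away from the annotated one: its end lies 119 nt short of the annotated end and leaves a 3′ UTR of 153 nt. The annotated class thus held 0% of the listed polysome coverage of Atp5b and 2.67% of its decay coverage.

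The leading Atp5b isoform has short UTRs. Its 5′ UTR of 21 nt is at percentile 9.69 of length in the polysome assay and 11.3 in the decay assay, where the medians over isoforms are 110 and 96 nt. Its 3′ UTR of 153 nt is at percentile 25.1 in the polysome assay, where the median is 336 nt. The 5′ UTR starts with A, as in 58.6% of polysome isoforms, has a purine at the third position before the start codon, as in 82.5%, and holds no upstream AUG and no terminal oligopyrimidine start.

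**Figure D1:**
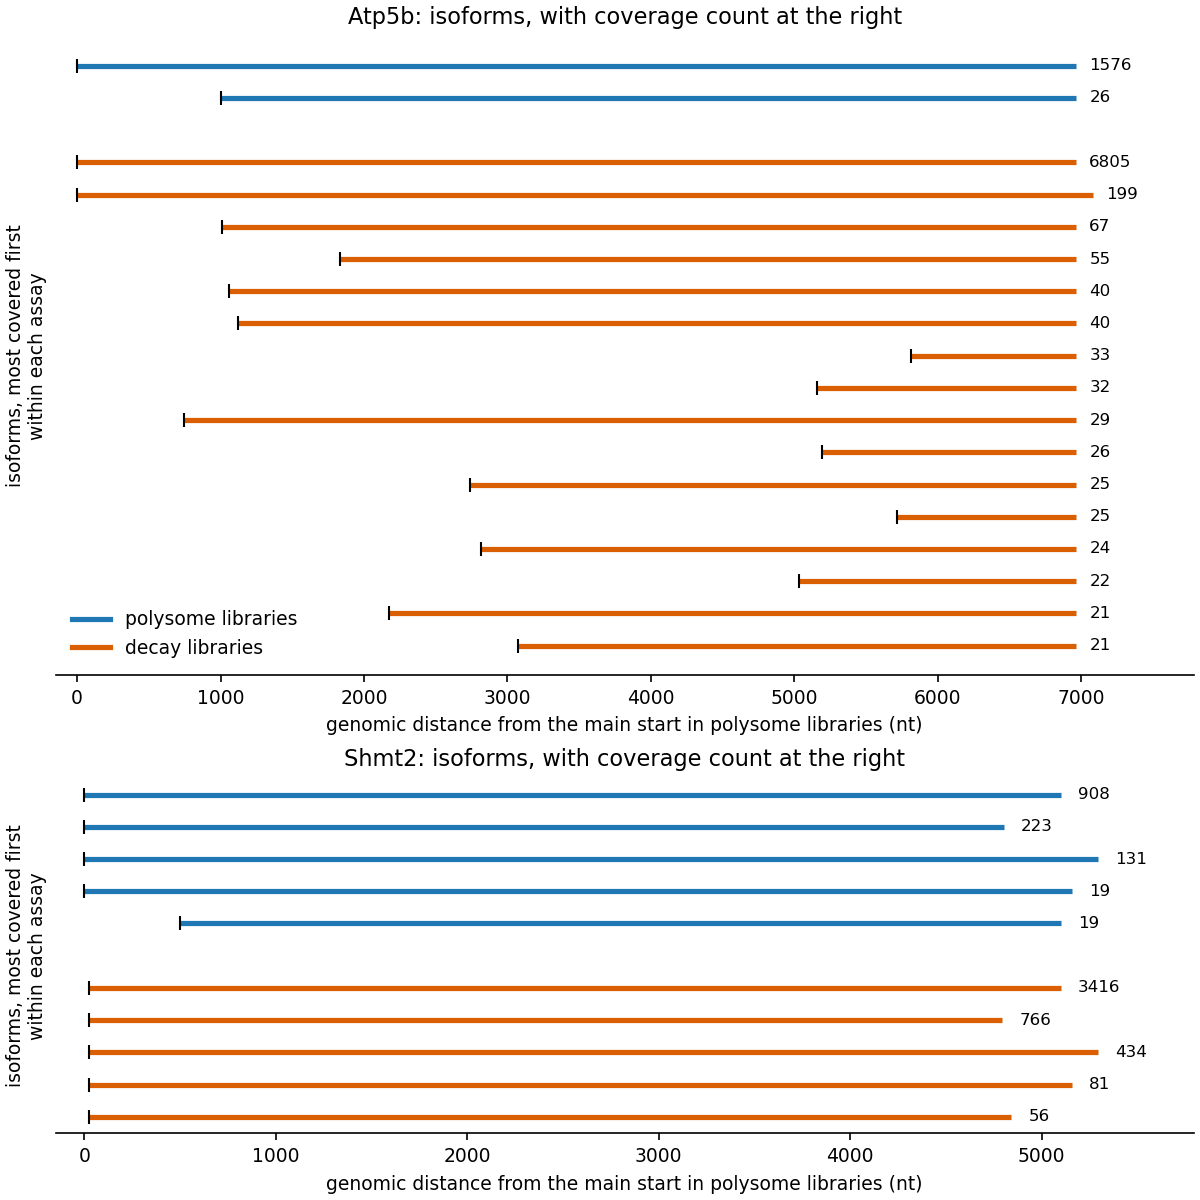
Every listed isoform of Atp5b (top) and Shmt2 (bottom) drawn to scale as a line from its 5′ end (tick) to its 3′ end, on an axis of genomic distance in nt from the main polysome start; introns are not drawn, and numbers at the right are coverage counts. Atp5b isoforms share 1 dominant pair of ends with 14 further starts in the decay assay, while Shmt2 isoforms mostly share a start and differ at the 3′ end.

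The leading Atp5b isoform had values near the middle of the range in both assays. Its TE was 0.000627, rank 3721 of 6206 nuclear isoforms with a TE above 0 (percentile 40.05), against a median of 0.000727 and a range from the 5th to the 95th percentile of 0.000250 to 0.00190. Its half-life was 11.6, rank 2511 of 6409 (percentile 60.8), against a median of 10.6 and a range of 5.48 to 20.97. These places depended on which isoforms they were set against. Decay coverage is pooled over the times after actinomycin D, so it may itself depend on half-life, which was not tested. Half-lives differed with coverage: the median was 9.58 over the 3370 isoforms with at most 80 counts and 12.05 over the 1412 with at least 300. Among the latter the leading Atp5b isoform was at percentile 40.9, below the median, and its TE was at percentile 30.1 of 869. Among isoforms with a 3′ UTR of 0.67 to 1.5 times its length, its TE was at percentile 26.03 of 1389 and its half-life at percentile 56.5 of 1443.

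The longer Atp5b 3′ end, at the annotated site 127926259, was listed in the decay assay only. It had 199 counts, 2.67% of Atp5b (2.32 to 3.06%), and adds 118 nt to the 3′ UTR. In the polysome assay the lowest listed count was 11, so an unlisted isoform can hold up to 10 counts, 0.624% of Atp5b coverage. At the decay share, 42.7 counts would have lain at this end. The polysome share thus lay below the decay share, if the lowest listed count alone decided what was listed, and no replicate spread is at hand for either.

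The half-life of this longer isoform was 8.82 (percentile 28.4), 0.761 times that of the 153-nt form, a log2 difference of -0.39. The added 118 nt carry 3 of the 4 ATTTA pentamers of the 271-nt 3′ UTR, the core letters of AU-rich elements. Of all decay isoforms with a 3′ UTR, 32.1% held at least 1 ATTTA and 2.08% held 4 or more. As a yardstick, isoforms of 1 start whose 3′ ends lay under 50 nt apart, both with at least 100 counts, differed in half-life by a root mean square of 0.400 on the log2 scale over 29 pairs. The Atp5b difference was no larger than that spread between nearly equal mRNAs.

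Beside the main start, Atp5b had many rarely used starts further inside the gene. In the decay assay 14 such starts, 747 to 5811 nt downstream of the main start on the genome, all joined the 153-nt 3′ end. They held 21 to 67 counts each (median 27.5) and 460 together, 6.16% of Atp5b (5.64 to 6.73%). The polysome assay listed 1 such start, 1000 nt downstream, with 26 counts or 1.62% (1.11 to 2.37%), and its minimum of 11 counts hides rarer ones. The Atp5b interval in RefSeq (GRCm38) also holds a small nucleolar RNA, Snord59a, and a microRNA, Mir677, and the distance of the inner starts from them was not tested. The first base was T in 6, A in 3, C in 3 and G in 2 of the 14 decay isoforms, where the main start has A, as do 61.1% of all decay isoforms. The starts at 127919922, 127920175 and 127920185 had deposited 5′ UTRs of 48, 17 and 7 nt that end in the same 7 letters.

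The number of starts at the main Atp5b end was set against other ends, since well covered ends can list more starts. The 15 starts at the main Atp5b end ranked 16 of 4168 ends in the decay assay (percentile 99.6). Among the 137 ends with 0.5 to 2 times its coverage the median was 3 starts, the highest count was 31, and 11 ends, Atp5b included, had 15 or more (percentile 92.3). By share of coverage, starts more than 50 nt inside the annotated start held 6.33% at this Atp5b end (percentile 66.0). The median was 0.977% over 601 ends with at least 1000 counts, with a range from the 5th to the 95th percentile of 0 to 100%. At an end whose main start lies so far inside, that main start counts too. In the polysome assay the Atp5b end had 2 starts, where 318 ends of like coverage had a median of 3.

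Half-lives of the Atp5b inner-start isoforms ran from 4.65 to 26.8, with a median of 10.1, and 5 of the 14 lay above the leading isoform's 11.6. The highest were 26.8 for the start at 127921006 (55 counts, rank 157 of 6409) and 23.5 for that at 127920185 (67 counts, rank 233). The lowest was 4.65 for the start at 127921913 (25 counts, rank 6231). Isoforms with at most 80 counts covered 4.64 to 23.7 between the 5th and 95th percentile over the whole assay, so 13 of these 14 values lay inside that range and the start at 127921006 lay above it. Weighted by coverage, the mean of the 14 was 13.97. The 1 inner-start isoform of the polysome assay had a TE of 0.000869 (percentile 61.6).

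**Figure D2:**
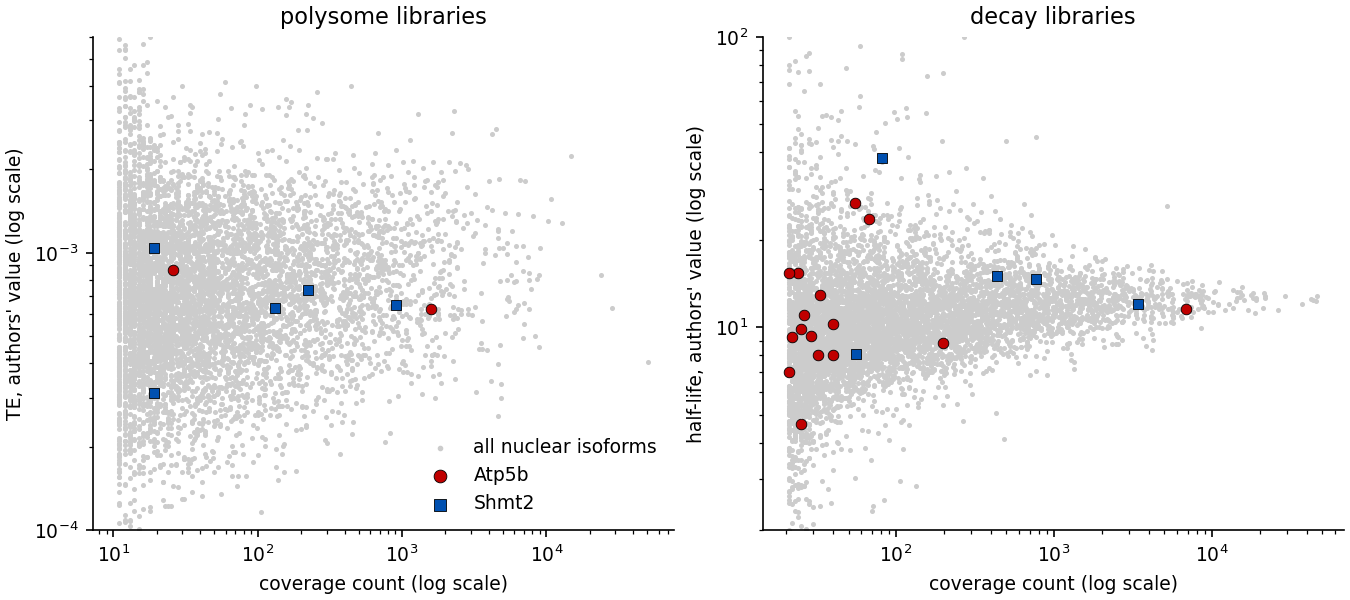
The authors' TE (left) and half-life (right) against coverage count, all on log axes, for every nuclear isoform (grey), Atp5b (red circles) and Shmt2 (blue squares); 38 TE and 45 half-life values lie outside the axes. The leading isoforms, at the right, lie inside the bulk, and the spread of half-lives narrows from low to high coverage.

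Shmt2 had 1 main start and several 3′ ends in each assay. The genes differed in the number of starts in the decay assay only, with 15 for Atp5b and 1 for Shmt2, where each had 2 in the polysome assay. In the polysome assay 98.5% of its coverage (97.7 to 99.1%) started at 127358287 (- strand), and in the decay assay all 4753 counts started at 127358265, 22 nt further inside. The deposited 5′ UTR was 98 nt in the first and 76 nt in the second, and both starts have A as first base. No Shmt2 isoform with the same pair of ends was therefore listed in both assays, although 3 of its 3′ ends were. Of 2667 3′ ends found in both assays, 66.6% had the same main start in each, 22.2% had main starts 1 to 19 nt apart and 11.2% at least 20 nt apart, the last including Shmt2. For Atp5b the main start was the same base in both.

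The use of Shmt2 3′ ends was alike in both assays. The 472-nt 3′ UTR, ending at 127353186, held 71.3% of polysome coverage over its starts (68.8 to 73.7%) and 71.9% of decay coverage (70.6 to 73.1%). The annotated end at 127352992, with 666 nt, held 10.1% (8.56 to 11.8%) and 9.13% (8.34 to 9.98%). The 529-nt form held 1.46% (0.938 to 2.27%) and 1.70% (1.37 to 2.11%). For each of these 3 ends the intervals of the assays overlapped. The annotated end was thus a minor end. By the deposited distances, the main end lies 178 nt short of an annotated end, and the 666-nt end is at distance 0. The distances are not counted from the same annotated position, since the positions and 3′ UTR lengths given here lie further apart than 178 nt.

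A short Shmt2 3′ UTR came next after the main form. In the polysome assay it ended at 127353485 with 173 nt and 17.2% (15.2 to 19.3%), and in the decay assay at 127353492 with 166 nt and 16.1% (15.1 to 17.2%). These ends are 7 nt apart, and joined as 1 end their intervals overlap too. A further end with 212 nt, listed in the decay assay only, held 1.18% (0.908 to 1.53%). The 212-nt end, like the 529-nt end, holds neither hexamer. The 20 nt after the 472-nt, 529-nt and 212-nt ends held 3, 3 and 5 A, where the median over ends with a longer nested isoform is 4, so none of these 3 was followed by an A-rich stretch.

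**Figure D3:**
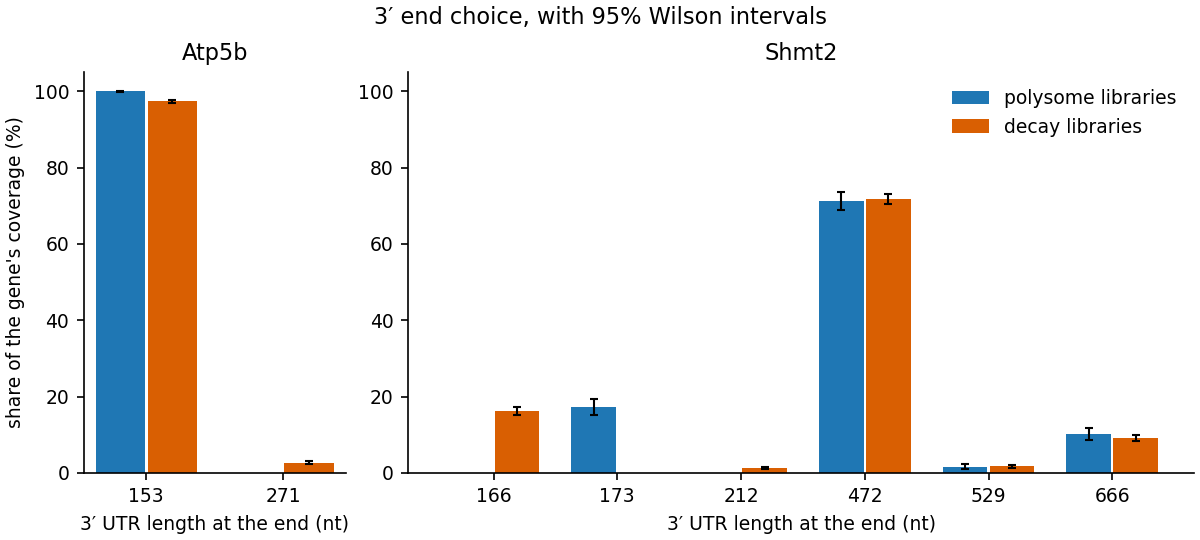
Share of each gene's coverage (%) at each 3′ end, named by 3′ UTR length in nt, for Atp5b (left) and Shmt2 (right); bars start at 0, blue is the polysome and orange the decay assay, and error bars are 95% Wilson intervals that cover counting error only. Atp5b used 1 end almost alone, and Shmt2 divided its coverage between a 472-nt, a short and a 666-nt 3′ UTR in like shares in both assays.

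The TE values of the 3 well covered Shmt2 forms lay close together. The 472-nt form had 0.000649 (908 counts, rank 3586, percentile 42.2), the 173-nt form 0.000737 (223 counts, percentile 50.8) and the 666-nt form 0.000630 (131 counts, percentile 40.5). Against the 472-nt form these are log2 differences of 0.18 and -0.04. Nearly equal polysome isoforms, defined as above, differed by a root mean square of 0.198 over 7 pairs with at least 100 counts, and neither difference exceeded that. The 529-nt form, with 19 counts, had 0.00104 (percentile 72.0).

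The half-lives at these 3′ ends differed more in size than the TE values, but the spread between nearly equal isoforms is also wider for half-life. The 472-nt form had 12.0 (3416 counts, rank 2225, percentile 65.3), the 166-nt form 14.7 (766 counts, percentile 84.1) and the 666-nt form 15.1 (434 counts, percentile 85.6). Both the shorter and the longer form were above the main one, by 0.29 and 0.33 on the log2 scale, each within the 0.400 of nearly equal pairs. That bar is wide here, since all 1412 isoforms with at least 300 counts had a standard deviation of 0.305 on this scale. It therefore cannot decide whether the half-lives of these well covered forms differ. With both forms above the 472-nt one, their values did not rise or fall steadily with the length of the Shmt2 3′ UTR. The 529-nt form stood apart with 38.2 (81 counts, rank 88 of 6409, percentile 98.6), 3.18 times the main form, a log2 difference of 1.67. The 212-nt form had 8.08 (56 counts, percentile 21.01), a log2 difference of -0.57. Pairs with at least 30 counts had a root mean square of 0.855 over 96 pairs, which the 529-nt form exceeded and the 212-nt form did not. The 529-nt form was also the highest of the Shmt2 TE values, on 19 counts.

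Set against isoforms of at least 300 counts, the leading Shmt2 isoform was at percentile 33.0 of TE and 49.0 of half-life, the latter below the median where it was above it among all isoforms. Among those with a 3′ UTR of like length it was at 45.8 of 1852 and 67.1 of 1797. Its UTR lengths were ordinary, with percentiles of 45.5 for the 98-nt 5′ UTR and 64.6 for the 472-nt 3′ UTR in the polysome assay. Its 5′ UTR ends in the letters below, with the purine at the third position before the start codon in capitals, as in 82.5% of polysome and 84.7% of decay isoforms.
Shmt2 5′ UTR end: agtcctcctgtgcctcctgtaGcg
No upstream AUG lies in the main Shmt2 5′ UTRs, as against 42.3% of polysome and 35.6% of decay isoforms that have at least 1.

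The polysome assay listed 1 inner start of Shmt2, at 127357785, 502 nt downstream of the main start, joined to the 472-nt end. It had 19 counts, 1.46% of Shmt2 (0.938 to 2.27%). Its deposited 134-nt 5′ UTR holds an upstream AUG and begins as printed here, with its first 5 letters in capitals because few isoforms begin so.
Shmt2 inner start: GTAAGaacagggttctgtttactggatgat
Starts with GTAAG made up 0.639% of polysome and 0.721% of decay isoforms. These are also letters with which many introns begin, and whether this start lies at such a boundary was not tested. Its TE was 0.000313, rank 5638 of 6206 (percentile 9.16), the lowest of the 7 polysome values of both genes and 0.483 times that of the main start with the same 3′ end, a log2 difference of -1.05. Nearly equal polysome pairs with at least 30 counts differed by 0.388 over 37 pairs, but this isoform has fewer counts than any of those.

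The 3′ UTR motifs looked for were mostly missing from both genes. The search was for letters on the mRNA strand only, at any overlap. The Shmt2 3′ UTRs are nested and share 1 ATTTA, and the 153-nt Atp5b 3′ UTR also held 1, where 29.2% of polysome and 32.1% of decay isoforms held at least 1. The Pumilio motif TGTANATA was in none of them, against 5.90% of polysome and 5.68% of decay isoforms. Seed sites of the muscle microRNAs miR-206 (ACATTCC, 3.28% and 2.62%) and miR-133b (GGACCAA, 4.18% and 2.54%) and of let-7a (CTACCTC, 4.63% and 3.88%) were also absent from every Atp5b and Shmt2 3′ UTR listed. An absent match says only that these letters are not in these windows.

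How far apart Atp5b and Shmt2 lay depended on the isoforms compared. Weighted by coverage over isoforms, TE was 0.000631 for Atp5b and 0.000663 for Shmt2, a log2 ratio of -0.07, and half-life was 11.7 and 13.1, a log2 ratio of -0.17. For the leading isoforms alone the ratios were -0.05 and -0.05. Each of these 4 ratios is smaller than the spread between nearly equal isoforms, 0.198 for TE and 0.400 for half-life. For half-life this bar is wide, since all 1412 isoforms with at least 300 counts had a standard deviation of 0.305 on the log2 scale. A half-life ratio within it thus does not show that these genes are unusually alike. With the unweighted median over isoforms, which gives the rare forms the same weight as the main one, the TE ratio turned to 0.21 and the half-life ratio was -0.54. Both exceed that spread, but it comes from pairs with at least 100 counts. Neither exceeds the 0.388 for TE and 0.855 for half-life of pairs with at least 30 counts. Some forms behind these medians have fewer counts still. For the annotated isoforms alone, the 271-nt form of Atp5b (199 counts) and the 666-nt form of Shmt2 (434 counts), the half-life ratio was -0.77. This is beyond the 0.400 of pairs with at least 100 counts.

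Other ATP synthase subunits could be set beside Atp5b where the first 25 nt of a deposited 5′ UTR matched the promoter window of a single RefSeq gene. This named 9 of 17 listed genes, 8 in each assay, and genes with shorter or shifted leaders are missing from it. The value of each is that of its most covered named isoform, and a more covered one may be unnamed. In the polysome assay 7 of the 8 had a higher TE than Atp5b and 1 a lower one, with a median of 0.00122 over the 8, against 0.000727 over all nuclear isoforms. The lower one was the gamma subunit Atp5c1, the rotor shaft of the F1 part, at 0.000522 (percentile 29.3, 102 counts). Its deposited 5′ UTR has 743 nt, where those of the other subunits named have 25 to 186 nt. Of the 7 higher ones, Atp5g3 rests on 11 counts, the lowest listed, Atp5md on 98 and the others on 155 to 1116. The epsilon subunit Atp5e, also of F1, had 0.000897 (percentile 63.6), and the membrane subunit Atp5k had the highest, 0.00228 (percentile 96.8, 652 counts). The d subunit of the stalk, Atp5h, had 0.00162 (percentile 91.3) and the proton-carrying c ring subunit Atp5g1 0.00129 (percentile 83.3). The beta subunit mRNA was thus at the low end of the 9 subunits by this value. The labels do not say whether TE was scaled by mRNA length, which differs among these genes.

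By half-life the named ATP synthase mRNAs spanned a smaller fold range than by TE, but they were not closer together in percentile. Their percentiles ran from 6.94 to 83.9 for half-life and from 29.3 to 96.8 for TE. Of 8 named, 6 were above Atp5b and 2 below, with a median of 12.7 against 11.6 for Atp5b. Atp5g1 had 14.6 (percentile 83.9), Atp5c1 14.2 (81.5), Atp5h 13.1 (75.2) and Atp5k 11.2 (57.2). Atp5j, the F6 subunit of the stalk, was lowest at 6.03 (percentile 6.94), on 60 counts. Its named isoform is of the deposited class New TSS, a start away from the annotated one, where those of the other subunits named are annotated. Whether a more covered Atp5j isoform went unnamed was not tested. These are descriptions of 1 pooled value of 1 named isoform per gene.

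Few partners of Shmt2 could be named. Of 19 genes of serine and one-carbon metabolism, 0 were named in the polysome and 2 in the decay assay. Mthfd2, which oxidises the folate one-carbon unit in mitochondria, had a half-life of 8.65 (83 counts, percentile 26.4), below the 12.0 of Shmt2. Gcsh, the hydrogen carrier of the glycine cleavage system, had 14.2 (24 counts, percentile 81.8), above it. Both rest on far fewer counts than Shmt2.

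**Figure D4:**
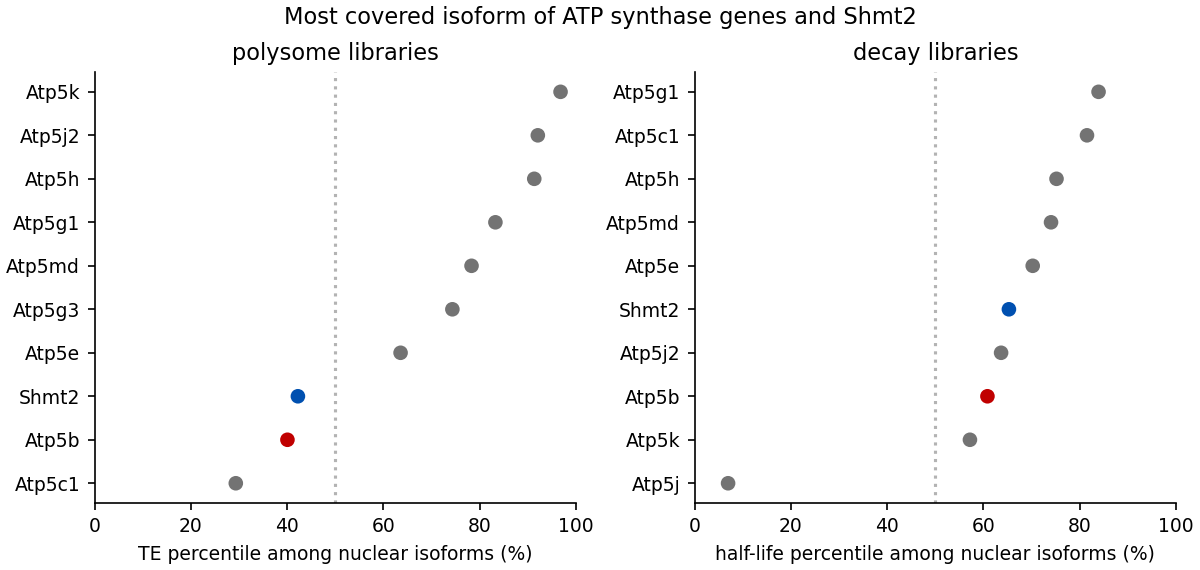
Percentile (%) among nuclear isoforms by the authors' TE (left) and half-life (right), with a dotted line at 50. Shown are the most covered isoform of Atp5b (red) and Shmt2 (blue), from all isoforms in their intervals. Grey points are the most covered named isoform of each ATP synthase gene named by sequence, whose other isoforms may be unnamed. Atp5b lies below 7 of the 8 other subunits by TE, and below 6 of 8 by half-life.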

How the data were processed

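TIF-seq2 libraries of mouse myotubes were processed with STAR 2.5.3a (on GRCm39), UMI-tools 0.5.4, cutadapt 1.16 and bcl2fastq 2.20.0, per the submitters' processing notes. The authors deposited, per isoform, a whole-number coverage count pooled over libraries, both ends, UTR sequences, a class, and TE or half-life. How molecular identifiers entered the counts is not stated in the labels. Of the deposited columns, 0 held a single library's values, so depth per library is unknown and no test was made. The polysome table summed to 1601919 counts (lowest 11, median 33) and the decay table to 3121491 (lowest 21, median 70).

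Python 3.11.15 with pandas 2.3.3 was used to compute shares of a gene's coverage with 95% Wilson intervals, which cover counting error only, and mid-rank percentiles among nuclear isoforms with a value above 0, tested on simulated data. The 57 TE and 49 half-life values at or below 0 were left out. Full values are given for isoforms with at least 5% of a gene's coverage, and for smaller ones only where they stand out, a choice made after their values were seen. Other genes were named by an exact match of 25 nt of 5′ UTR to RefSeq windows from 250 before to 50 after the start (GRCm38.p6), which named 25.8% of polysome and 26.3% of decay isoforms. The members and gene lists were chosen with earlier results of these data known. The yardstick of nearly equal isoforms, the coverage ranges, the surveys of starts, and the searches for the start of the Shmt2 inner leader, microRNA sites and downstream A were added after the tables had been seen. The sequence at the short Shmt2 3′ ends is not reported here. Alternatives were other reference sets, weightings, coverage minimums and joined ends.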

Additional observations from a re-analysis of the deposited data

Results flagged for a closer look

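The decay assay held 1 isoform of the opposite strand at the distal Shmt2 end, outside the comparisons above. It had 29 counts and a half-life of 33.6, ran from 127348045 to 127353021 on the + strand of chromosome 10, and overlapped the 666-nt Shmt2 form by 30 nt. No gene was tied to it by sequence, and there is no control library to set its level against. In RefSeq (GRCm38) the interval of Ndufa4l2 overlaps that of Shmt2, and whether this isoform belongs to that gene was not tested.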

How the results depend on the processing

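Over 41 alternatives to 10 results, 16 values were labelled the same as the value reported and 25 moved. Shares were judged by their Wilson interval and log2 ratios by the spread of nearly equal pairs. For percentiles the label came from a Wilson interval on the fraction of isoforms ranked below, not printed here. That interval holds no error of TE or half-life itself and is narrow. For Shmt2 half-life, 66.5 against 65.3 counted as moved. These totals therefore do not show how uncertain the percentiles are. The share of the leading Atp5b isoform became 93.6% in the decay assay with a minimum of 30 counts. In the polysome assay that minimum left 1 Atp5b isoform, and so did keeping isoforms common to both assays. The 100% that each gave was therefore fixed in advance, though it counts among the values that moved. Percentiles followed the reference set. With at least 30 counts they were 38.1 (Atp5b TE), 59.0 (Atp5b half-life), 40.4 (Shmt2 TE) and 63.9 (Shmt2 half-life). With at least 300 they were 30.1, 40.9, 33.0 and 49.0, so both half-lives passed below the median. With 1 isoform per 3′ end they were 38.4 (Atp5b TE), 40.6 (Shmt2 TE) and 66.5 (Shmt2 half-life). Against annotated isoforms TE was at 37.0 for Atp5b and 39.4 for Shmt2. Against 3′ UTRs of like length the 4 percentiles were 26.03, 56.5, 45.8 and 67.1. With the weighted mean, Shmt2 was at 43.6 for TE and 75.5 for half-life. The log2 TE ratio of Atp5b to Shmt2 turned from -0.07 to 0.21 with the median over isoforms, and the half-life ratio moved from -0.17 to -0.77 with annotated isoforms. It was -0.54 with the median, a shift under the 0.400 of nearly equal pairs. A TE ratio of annotated isoforms could not be formed, since Atp5b has none in the polysome assay, nor a share of Shmt2 isoforms common to both assays, of which there are 0. Leaving out replicates was not run, and no paired analysis was possible because the deposited values are pooled over mice. Low counts limit the rare isoforms most.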
